A study of Homo sapiens with 12 samples.

Results

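Metallothioneins are small cysteine-rich proteins that bind zinc and copper ions. When free zinc rises in a cell, the zinc-finger factor MTF1 binds metal response elements in DNA and turns on the metallothionein genes together with SLC30A1, whose product, the exporter ZnT1, carries zinc out across the plasma membrane. The human genes of the MT1 and MT2 classes lie in a cluster on chromosome 16, and their transcripts also respond to glucocorticoids, oxidative stress and, in some cells, low oxygen. The genes described here are 8 of the 60664 rows of the expression table, taken by symbol: the metallothioneins MT2A, MT1E, MT1X, MT1F, MT1G and MT1M, the factor MTF1 and the exporter SLC30A1.

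RNA was sequenced from MDA-MB-231, an established line from a triple-negative breast cancer, in 3 groups of 4 libraries. The groups were wild type (WT) cells left untreated in normoxia, WT cells kept in hypoxia for 24 hr (1% O2 in the study's methods), and cells of genotype CCAR2-/- (CCAR2 KO) left untreated in normoxia. The knockout cells were made with a LentiCRISPR vector against CCAR2, which encodes DBC1, a nuclear regulator of p53 and of the deacetylase SIRT1. Whether they were 1 clone or a pool is not given in the sources used here, and the WT cells have no vector control named in the labels. The labels do not say whether libraries of a group came from separate cultures, and the replicate numbers in the study's methods differ from the 4 libraries per group, so p-values measure the spread between these libraries, which may be technical. The same WT normoxia libraries serve both comparisons with WT normoxia.

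The estimated counts of a library summed to between 153904088 and 213743693 in WT normoxia, 76384973 and 195621872 in WT hypoxia, and 68599412 and 152328450 in CCAR2 KO. Values are given as CPM, the estimated counts scaled to the TMM-adjusted library sum. The targeted gene was read first. CCAR2 lay between 144 and 151 CPM in WT normoxia and between 143 and 154 CPM in WT hypoxia. In CCAR2 KO it lay between 54.7 and 61.3 CPM, a log2 fold change of -1.34 (SE 0.04) against WT normoxia. The knockout libraries thus carried less CCAR2 RNA but not none. RNA level does not measure protein, and the study's methods report the edit checked by sequencing and the loss of protein by Western blot. The line's markers VIM and CD44 were at a mean of 5102 and 629 CPM in WT normoxia, and ESR1, PGR and CDH1 at 0.266, 0.0407 and 0.0422 CPM; ERBB2 and EPCAM, on the list of genes low in this line, were at 91.0 and 14.4 CPM. Of the markers of other cell types, PTPRC of leukocytes was at 0.205 CPM, while PECAM1 of endothelium and COL1A1 of fibroblasts were at 2.56 and 14.0 CPM in WT normoxia and were called higher in CCAR2 KO, with log2 fold changes of 1.11 (SE 0.14) and 0.56 (SE 0.07). Their part in the results below was not tested.

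By the GENCODE v29 annotation of GRCh38, the 6 metallothionein genes lie within a stretch of chromosome 16 that begins with MT2A (ENSG00000125148, chr16:56608199-56609497, plus strand). MT1E (ENSG00000169715, chr16:56625475-56627112), MT1M (ENSG00000205364, chr16:56632233-56633986) and MT1F (ENSG00000198417, chr16:56657694-56660698) follow on the same strand. MT1G (ENSG00000125144, chr16:56666731-56668065) is on the minus strand, and MT1X (ENSG00000187193, chr16:56682424-56684196) is on the plus strand. MTF1 (ENSG00000188786, chr1:37809567-37859620) and SLC30A1 (ENSG00000170385, chr1:211571568-211578742) are both on the minus strand of chromosome 1. All 8 are protein-coding, and the values are estimated counts per gene.

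Metallothionein transcripts resemble each other, which bears on how reads are divided among them. Of the windows of 50 bases in the annotated transcripts, 16.5% of MT1G, 9.87% of MT1M, 7.10% of MT1E, 3.02% of MT2A and 1.22% of MT1F also occur in a transcript of another gene, and at 100 bases none of these do. MT1X stands apart with 18.3% of its windows at 50 bases and 11.3% at 100 bases, the latter all shared with AC026461.1, a processed transcript that overlaps it on the same strand and had a count of 0 in all 12 libraries. SLC30A1 shares none of its 50-base windows and MTF1 0.640%. How the authors' counting divided reads that fit several genes is not given in the sources used here, so small values such as those of MT1G and MT1M are uncertain.

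RefSeq promoter windows on GRCh38.p14, from 250 bases before to 50 after a gene's start, were found for 4 of the 8 genes: MT2A, MT1X, SLC30A1 and MTF1. The core of the metal response element was searched as TGCACNC and TGCGCNC on both strands. The window of MT2A held 8 matches, that of MT1X 4, that of SLC30A1 2 and that of MTF1 0. Of 35116 promoter windows of this length, 29.6% held at least 1 match, 2.30% at least 3 and 0.162% at least 5. The sites below are those of SLC30A1, the member that changed most. Examples from the MT2A and MT1X windows that lie before the RefSeq start are added. Each is read in the direction of its gene, and capitals mark the core. The core appears as its reverse complement where the match is on the opposite strand.
SLC30A1, chr1:211579194-211579220: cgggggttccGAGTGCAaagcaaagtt
SLC30A1, chr1:211579121-211579147: agaccgggccGAGTGCAgctgccgtgg
MT2A, chr16:56608486-56608512: agcgcggggcGTGTGCAggcagcgccc
MT2A, chr16:56608520-56608546: gcggggctttTGCACTCgtcccggctc
MT1X, chr16:56682382-56682408: cagcaggggcGGGTGCAaggacgaggc
MT1X, chr16:56682407-56682433: gcggggcctcTGCGCCCggccctcttc

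The core of the hypoxia response element, searched as ACGTG and GCGTG on both strands, had 3 matches in each of the MT2A, MT1X and SLC30A1 windows and 2 in that of MTF1, while 48.4% of all windows held at least 1 and 10.1% at least 3. In the MT2A window, 2 of them overlap a match to the metal response core. These matches are descriptions of letters in the windows. The RefSeq start of SLC30A1 lies upstream of the GENCODE v29 gene used above, and those of MT2A, MT1X and MTF1 lie inside their GENCODE genes. The MT2A sites printed above therefore lie inside the GENCODE gene, and the printed stretch of the second MT1X site spans the GENCODE start. The windows and the gene coordinates come from different annotations of the same build.

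MT2A was by far the most abundant of these transcripts. Per kilobase of annotated exons, the mean level in WT normoxia was 554 CPM per kb for MT2A, 79.7 for MT1E, 11.9 for MT1X, 6.03 for SLC30A1, 1.98 for MTF1 and 0.833 for MT1F. The ranges of neighbours in this order did not overlap in any of the 3 groups. In WT normoxia the lowest MT1X library was at 10.4 and the highest SLC30A1 library at 6.41 CPM per kb, and the lowest MTF1 library was at 1.82 and the highest MT1F library at 0.958 CPM per kb. Among 33910 genes ranked by this level, MT2A was at rank 48, MT1E at 539, MT1X at 4038, SLC30A1 at 6426, MTF1 at 10063 and MT1F at 12403. With the median annotated transcript as the length, the order of MTF1 and MT1F turned in WT hypoxia: MTF1 was at 3.78 and MT1F at 2.85 CPM per kb in WT normoxia, at 3.26 and 3.76 in WT hypoxia, and at 4.78 and 3.18 in CCAR2 KO.

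MT1G and MT1M were close to absent. MT1G had an estimated count of 6 in CCAR2 KO replicate 1 and 0 in the other 11 libraries. MT1M had estimated counts of 6 and 12 in CCAR2 KO replicates 3 and 4 and 0 in the other 10 libraries. A count of 0 allows up to 3 counts, which is between 0.0144 and 0.0196 CPM in a WT normoxia library, between 0.0152 and 0.0388 CPM in WT hypoxia and between 0.0195 and 0.0430 CPM in CCAR2 KO; these limits cover counting error only. Both genes were below the filter on low counts in every comparison, so that 6 of the 8 members were tested in each.

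**Figure D1:**
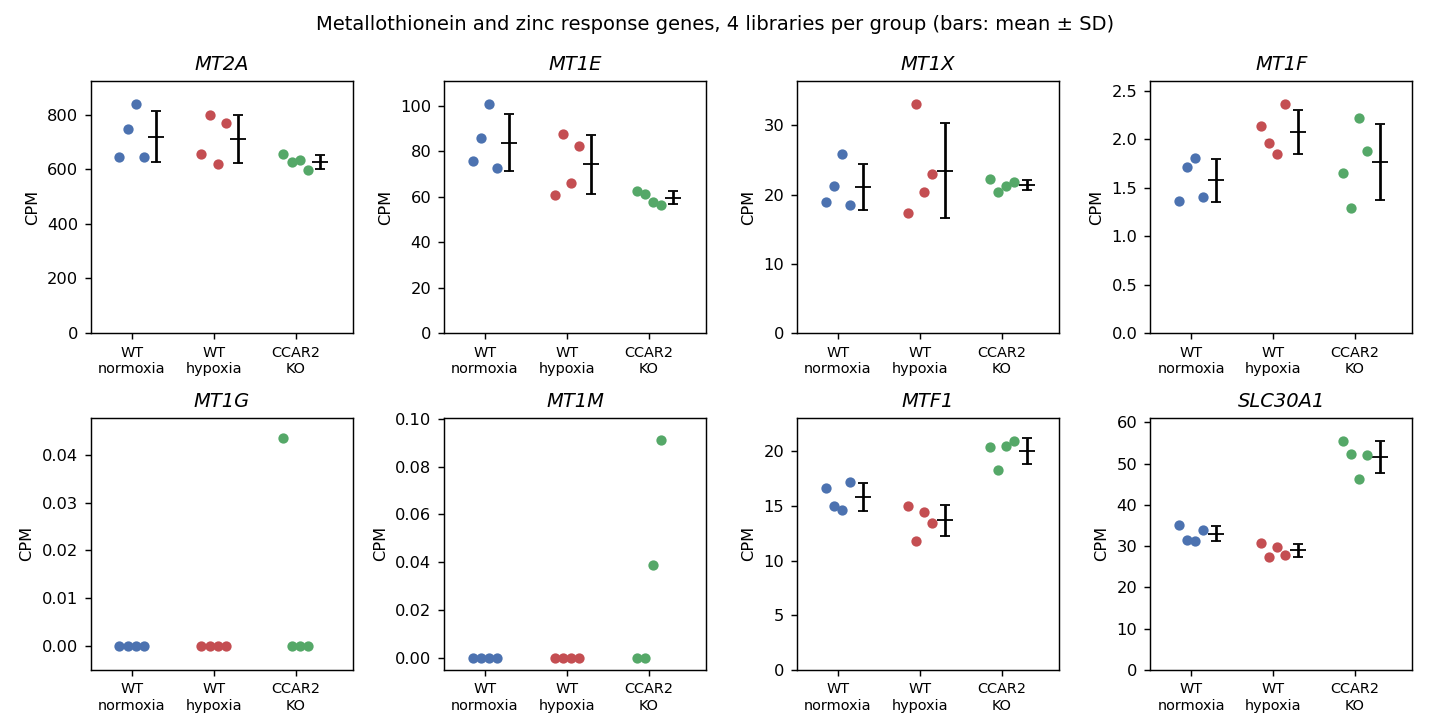
Level of each of the 8 genes in CPM (vertical axes, linear, starting at 0 or just below it) in the 4 libraries of WT normoxia, WT hypoxia and CCAR2 KO; points are libraries, and bars give the mean ± SD where a gene was tested. The CCAR2 KO libraries of SLC30A1, between 46.2 and 55.6 CPM, lie above all WT libraries, and those of MT1E, between 56.3 and 62.5 CPM, lie at the low end.

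The first comparison asked what 24 hr of hypoxia did in WT cells. No tested member was called, that is, none had both an adjusted p-value under 0.05 in edgeR's quasi-likelihood test and a log2 fold change of 0.5 or more in either direction. Among all genes tested, 5.83% were called higher and 1.43% lower. The median log2 fold change of the 6 members was -0.10, and that of all 21776 genes tested 0.01. By the adjusted p-value alone, 1 member was below 0.05, SLC30A1, and 5 were not, against 23.5% of all genes tested that were below it in either direction. Before adjustment 3 members had an edgeR p-value under 0.05, SLC30A1, MTF1 and MT1F, and DESeq2 and limma-voom each called 0 of the 6. The exact permutation test over libraries, without adjustment, gave its smallest possible value, 0.0286, for SLC30A1 and MT1F. In RNA from whole cultures, a change in the number of cells that express a gene and a change in RNA per cell cannot be told apart.

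MT2A, the main metallothionein of these cells, was at 647, 749, 840 and 644 CPM in WT normoxia replicates 1 to 4 and at 656, 800, 621 and 770 CPM in WT hypoxia replicates 1 to 4. The ranges overlapped, with WT normoxia replicate 3 the highest of all. The log2 fold change was -0.03 (SE 0.10, 95% interval -0.25 to 0.20).

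MT1E, the next most abundant, was at 75.8, 85.9, 101 and 72.8 CPM in WT normoxia and at 60.9, 87.7, 66.0 and 82.5 CPM in WT hypoxia. These ranges overlapped too, and the log2 fold change was -0.18 (SE 0.13, 95% interval -0.46 to 0.10, adjusted p = 0.345 in edgeR). MT1X was at 18.9, 21.3, 25.8 and 18.5 CPM in WT normoxia and at 17.3, 33.1, 20.4 and 23.0 CPM in WT hypoxia. Hypoxia replicate 2 was the highest of the 8 libraries, and without it the log2 fold change went from 0.14 (SE 0.18) to -0.07.

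MT1F, the least abundant tested member, was at 1.36, 1.72, 1.81 and 1.41 CPM in WT normoxia and at 2.14, 1.96, 1.85 and 2.36 CPM in WT hypoxia. Every hypoxia library lay above every normoxia library, as in 1 direction or the other for 26.4% of all genes tested, and of the members this held for 2, MT1F and SLC30A1. The log2 fold change was 0.39 (SE 0.15, 95% interval 0.07 to 0.71), but the adjusted p-value in edgeR was 0.0783.

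MTF1, the zinc sensor, was at 16.7, 15, 14.6 and 17.2 CPM in WT normoxia and at 15, 11.8, 14.5 and 13.4 CPM in WT hypoxia. The groups overlapped, and the log2 fold change was -0.22 (SE 0.09, adjusted p = 0.104 in edgeR). SLC30A1 was at 35.1, 31.6, 31.3 and 34.0 CPM in WT normoxia and at 30.8, 27.5, 29.8 and 27.7 CPM in WT hypoxia, all hypoxia libraries below all normoxia libraries. Its log2 fold change was -0.20 (SE 0.06, adjusted p = 0.0398 in edgeR), well inside the limit of 0.5, and it was -0.02 with an adjusted p of 0.867 once a trend with transcript GC content was removed.

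**Figure D2:**
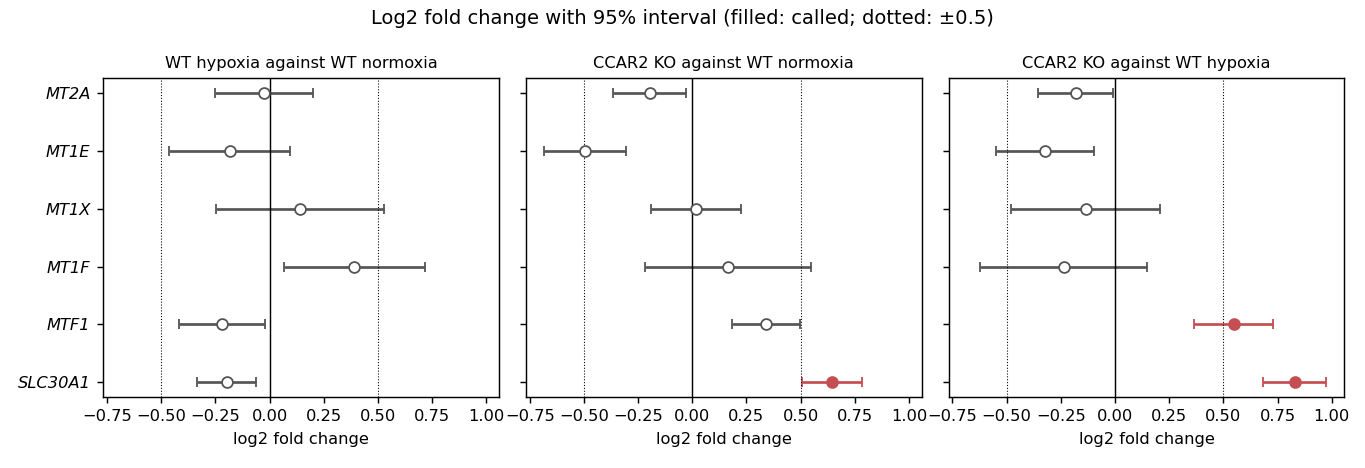
Log2 fold change of the 6 tested members (horizontal axis) in the 3 comparisons; points are estimates, lines are 95% intervals, filled points were called, and dotted lines mark ±0.5. No member was called in hypoxia, SLC30A1 was called higher in CCAR2 KO against WT normoxia (0.64), and SLC30A1 and MTF1 were called higher in CCAR2 KO against WT hypoxia (0.83 and 0.55).

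The second comparison asked what loss of CCAR2 did in normoxia. SLC30A1 rose and no other member was called, while 6.73% of the 21410 genes tested were called higher and 2.94% lower. The zinc exporter was at 55.6, 52.4, 46.2 and 52.1 CPM in CCAR2 KO replicates 1 to 4, against 31.3 to 35.1 CPM in WT normoxia. The lowest KO library was above the highest WT library. The log2 fold change was 0.64 (SE 0.06, 95% interval 0.51 to 0.78, adjusted p = 1.13e-05 in edgeR), and the exact permutation test gave its smallest possible p, 0.0286. The call held in 11 of 12 other settings, with log2 fold changes of 0.54 to 0.69. It failed where a log2 fold change of at least 1 was required. That setting and the adjusted p-value alone kept the main fit and moved only the threshold, so their outcomes were fixed by it. The call held in all 8 fits with a library left out, at 0.60 to 0.69.

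MTF1 was at 20.5, 18.3, 20.5 and 21.0 CPM in CCAR2 KO, again above every WT normoxia library. Its log2 fold change of 0.34 (SE 0.07, 95% interval 0.18 to 0.50, adjusted p = 0.00345 in edgeR) was past the adjusted p-value and under the fold limit. By the adjusted p-value alone 3 of the 6 members passed in this comparison, and 30.4% of all genes tested. Groups did not overlap for 3 of the 6 members, SLC30A1, MTF1 and MT1E, and for 30.8% of all genes tested. The median log2 fold change of the members was 0.09, and of all genes tested 0.01.

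MT1E had the lowest log2 fold change of the tested members in the knockout. It was at 62.5, 61.4, 57.9 and 56.3 CPM in CCAR2 KO, all below the lowest WT normoxia library at 72.8 CPM. The log2 fold change was -0.495 (SE 0.09, 95% interval -0.69 to -0.31, adjusted p = 0.00100 in edgeR), which misses the fold limit narrowly. The call therefore turned on single libraries: without WT normoxia replicate 1 or 4, or without CCAR2 KO replicate 1 or 2, MT1E was called lower, at -0.54, -0.56, -0.52 and -0.51, and without WT normoxia replicate 3 it was at -0.40.

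The other metallothioneins did not pass the test in the knockout. MT2A was at 658, 625, 635 and 596 CPM in CCAR2 KO, inside and below the WT normoxia range, with a log2 fold change of -0.20 (SE 0.08, 95% interval -0.37 to -0.03, adjusted p = 0.0764 in edgeR). MT1X was at 22.2, 20.4, 21.2 and 21.8 CPM, within the WT normoxia range, with a log2 fold change of 0.02 (SE 0.09, 95% interval -0.19 to 0.22). MT1F was at 1.65, 1.29, 2.22 and 1.88 CPM and overlapped WT normoxia on both sides, with a log2 fold change of 0.17 (SE 0.18, 95% interval -0.22 to 0.55).

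The third comparison set CCAR2 KO against WT hypoxia, and since both share the WT normoxia control, it is also the test of whether their differences from that control were unequal. SLC30A1 and MTF1 were called higher in CCAR2 KO and no member lower; of 21158 genes tested, 7.08% were called higher and 7.88% lower. For SLC30A1 the log2 fold change was 0.83 (SE 0.07, 95% interval 0.68 to 0.98, adjusted p = 3.14e-06 in edgeR), with 46.2 CPM in the lowest KO library and 30.8 CPM in the highest hypoxia library. For MTF1 it was 0.55 (SE 0.08, 95% interval 0.36 to 0.73, adjusted p = 0.000392 in edgeR), with 18.3 CPM in the lowest KO library and 15 CPM in the highest hypoxia library. The MTF1 call was lost without WT hypoxia replicate 2, the library lowest in MTF1, at 0.48, and when a trend with transcript length was removed, at 0.44.

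None of the 4 tested metallothioneins was called between CCAR2 KO and WT hypoxia. The log2 fold changes were -0.32 (SE 0.10, adjusted p = 0.0305 in edgeR) for MT1E, -0.24 (SE 0.18) for MT1F, -0.18 (SE 0.08) for MT2A and -0.14 (SE 0.16) for MT1X. Of these 4, MT1E passed the adjusted p-value, and all 4 overlapped between the groups. With SLC30A1 and MTF1, 3 of the 6 members passed the adjusted p-value alone, as did 34.9% of all genes tested. SLC30A1 and MTF1 were the 2 members without overlap, as were 35.9% of all genes tested. The median of the members was -0.16, and that of all genes tested -0.02.

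Summed over the 6 metallothionein members, the level was 827 ± 110 CPM in WT normoxia, 811 ± 105 CPM in WT hypoxia and 711 ± 28.2 CPM in CCAR2 KO (SD, n = 4 libraries each). The libraries ran from 737 to 968 CPM, from 709 to 922 CPM and from 676 to 745 CPM. The knockout libraries thus lay at the low end of the WT range or below it. With the other metallothionein genes and pseudogenes of the table added, the means were 828, 813 and 713 CPM, so nearly all of the total came from the members. Of all estimated counts in a library, the members' total took 0.0689% to 0.0946%.

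Within the total the division between genes was narrow in each group. Per kilobase of exons, MT2A made up 85.7% ± 0.328 in WT normoxia, 86.6% ± 0.989 in WT hypoxia and 87.4% ± 0.245 in CCAR2 KO (SD, n = 4). MT1E made up 12.3% ± 0.278, 11.1% ± 0.698 and 10.2% ± 0.286 in the same order, and its CCAR2 KO libraries, at 9.88% to 10.6%, did not reach its WT normoxia libraries, at 12% to 12.7%. MT1X ran from 1.79% to 1.92% in WT normoxia and from 2.09% to 2.34% in CCAR2 KO, also without overlap, and from 1.70% to 2.60% in WT hypoxia. The MT2A share did not overlap either, from 85.3% to 86% in WT normoxia and from 87.2% to 87.8% in CCAR2 KO. The shares are parts of the same total, so they do not move independently. The level of MT1X itself had a log2 fold change of 0.02 (SE 0.09) in CCAR2 KO against WT normoxia. These shares are given as a description, without a test. Of raw counts, the MT1E share was 10.1%, 9.12% and 8.37%, in the same order of groups.

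**Figure D3:**
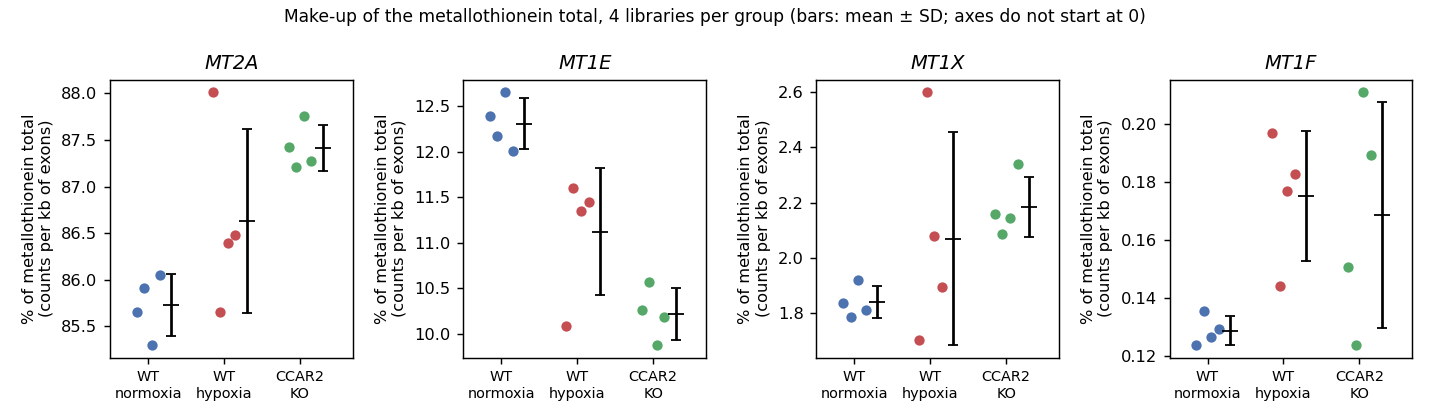
Share of MT2A, MT1E, MT1X and MT1F in the metallothionein total (vertical axes, percent of counts per kilobase of exons, not starting at 0) in the 4 libraries of each group; points are libraries and bars the mean ± SD. The MT1E share is 12% to 12.7% in WT normoxia and 9.88% to 10.6% in CCAR2 KO, while the MT2A share is above 85% in every library.

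Across the 12 libraries, MT1E and MT2A went up and down together, with Pearson's r of 0.91, and 0.94 after the group means were removed. For MT1X and MT2A the values were 0.69 and 0.81, and for MT1F and MT2A 0.31 and 0.43. MTF1 and SLC30A1 had r of 0.92, and 0.55 with the group means removed, while MT1E and MTF1 ran in opposite directions at -0.73 and -0.88. These are descriptions over 12 libraries that share a normalization. The median deviation of 1567 genes with transcripts under 600 bases is a library-wide measure chosen after the values were seen. It lay between -0.01 and 0.03 on the log2 scale. Its r was 0.89 with MT1E, 0.90 with MT2A, -0.61 with MTF1 and -0.55 with SLC30A1. With the group means removed, these were 0.91, 0.87, -0.67 and -0.59. The part of this measure in the results was not tested.

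**Figure D4:**
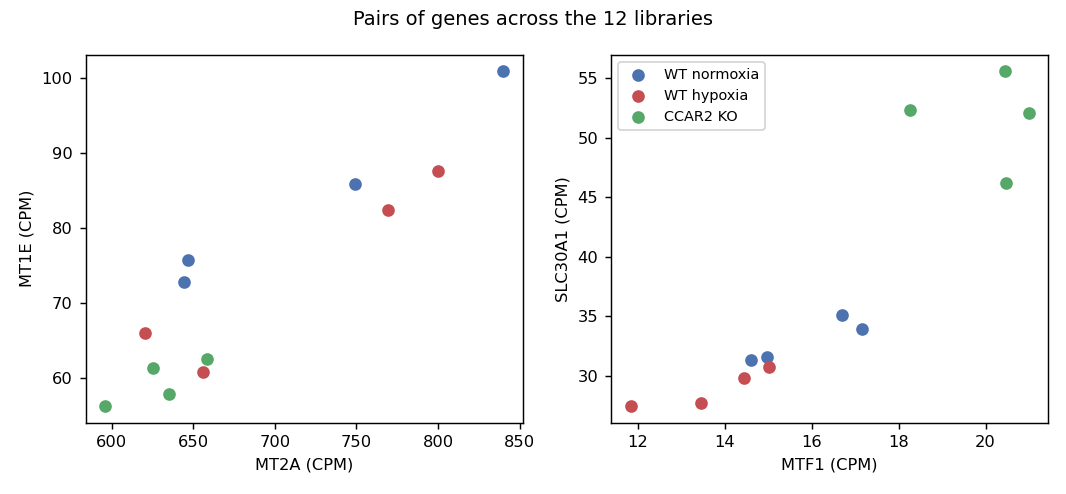
CPM of MT1E against MT2A and of SLC30A1 against MTF1 in the 12 libraries; each point is a library and colours mark the groups. MT1E is high where MT2A is high, but at like MT2A levels the CCAR2 KO libraries (MT1E at 56.3 to 62.5 CPM) lie below those of WT normoxia (72.8 CPM or more), and for SLC30A1 the CCAR2 KO libraries form a group of their own above 46 CPM.

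The genes most like the mean of MT1E, MT1F, MT1X and MT2A over the 12 libraries, among 13660 genes, were MRPL27 (r = 0.94), RPL36 (0.92), RPSAP19 (0.92), UQCRH (0.92) and EIF3FP3 (0.91). MRPL27 and RPL36 encode ribosomal proteins of the mitochondrion and the cytosol, UQCRH a subunit of respiratory complex III, and RPSAP19 and EIF3FP3 are pseudogenes. With the group means removed, r was between 0.88 and 0.93. Those most like SLC30A1 were TGFBR2, SCARB2, ITGA2, RASA1 and BIRC3, each with r of 0.99, which became 0.77 to 0.87 with the group means removed. With the median deviation of short transcripts given above, r was 0.89 for MT1E, 0.90 for MT2A, 0.69 for MT1X and 0.28 for MT1F. The part of that measure in the likeness to other genes was not tested.

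The remaining metallothionein genes and pseudogenes of the table numbered 15, of which 3 could be tested in hypoxia and 2 between CCAR2 KO and WT hypoxia. MT1A, a further MT1 gene of the cluster, was called higher in WT hypoxia, at 1.68, 1.71, 1.49 and 2.17 CPM against 1.02, 1.38, 1.07 and 1.06 CPM in WT normoxia. Its groups did not overlap, and the log2 fold change was 0.63 (SE 0.17, adjusted p = 0.0182 in edgeR). The call was lost without WT normoxia replicate 1, 3 or 4 or without WT hypoxia replicate 4, at 0.58, 0.61, 0.61 and 0.52. In CCAR2 KO, MT1A was at 1.02, 0.574, 0.799 and 1.12 CPM and was called lower than in WT hypoxia, with a log2 fold change of -1.0 (SE 0.22, adjusted p = 0.00411 in edgeR). Against WT normoxia, MT1A was not called in CCAR2 KO, with a log2 fold change of -0.36 (SE 0.21, adjusted p = 0.241 in edgeR). No other gene of this list was called in any of the 3 comparisons. Of all genes tested, 5.83% were called higher in hypoxia and 7.88% lower in CCAR2 KO against WT hypoxia.

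The list of zinc exporters other than SLC30A1 held the rest of the SLC30 family, most of which move zinc out of the cytosol into vesicles and the secretory pathway, and TMEM163, an efflux transporter of vesicles and the plasma membrane. Of 10 in the table, 8 were tested. Besides the alternatives below, 1 was called, TMEM163. Of all genes tested, 6.73% were called higher in CCAR2 KO against WT normoxia and 7.08% against WT hypoxia. By the adjusted p-value alone 3 of the 8 passed in hypoxia, 2 in CCAR2 KO against WT normoxia and 2 against WT hypoxia. The shares of all genes tested that passed were 23.5%, 30.4% and 34.9%. TMEM163 rose in CCAR2 KO, at 17.2, 15.5, 17.9 and 16.3 CPM against 7.88, 9.06, 7.01 and 8.04 CPM in WT normoxia. Every knockout library was above every WT library, and the log2 fold change was 1.07 (SE 0.08, adjusted p = 1.65e-06 in edgeR). In WT hypoxia it was at 6.07, 5.21, 5.69 and 6.74 CPM, a log2 fold change of -0.44 (SE 0.11) that missed the fold limit except without WT hypoxia replicate 4, at -0.50, and against WT hypoxia the knockout stood at 1.49 (SE 0.09, adjusted p = 5.52e-07 in edgeR). SLC30A3, named after its value was seen, was called lower than in WT hypoxia only without WT hypoxia replicate 4, at -0.75. The median log2 fold change of the 8 genes was -0.11 in hypoxia and 0.05 in CCAR2 KO against WT normoxia.

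Zinc importers of the SLC39 family bring zinc into the cytosol. In hypoxia 12 of 14 were tested and 1 was called, SLC39A11, higher at 5.32, 5.03, 3.98 and 4.57 CPM against 3.02, 3.15, 2.90 and 3.72 CPM in WT normoxia. The log2 fold change was 0.55 (SE 0.13, adjusted p = 0.00981 in edgeR), and the call was lost without WT hypoxia replicate 1, at 0.49, and when the GC trend was removed, at 0.46. Of all genes tested in hypoxia, 5.83% were called higher and 1.43% lower. By the adjusted p-value alone, 6 of the 12 passed in hypoxia, 2 higher and 4 lower, where 23.5% of all genes tested passed. In CCAR2 KO, 13 were tested and none was called, with 6 under an edgeR p-value of 0.05 before adjustment and 5 after it, 2 higher and 3 lower, and all within the fold limit, where 30.4% of all genes tested passed the adjusted p-value. DESeq2 and limma-voom called 0 of them as well. Between CCAR2 KO and WT hypoxia 0 of 12 were called by the same tools. Of these 12, 9 were under 0.05 in edgeR before and after adjustment, 5 higher and 4 lower. Of all genes tested, 34.9% passed the adjusted p-value. The shares called higher and lower were 6.73% and 2.94% in CCAR2 KO against WT normoxia, and 7.08% and 7.88% against WT hypoxia. Single libraries decided the calls for SLC39A10 and SLC39A8, which are named after their values were seen. SLC39A10 was called higher without WT hypoxia replicate 1 or 3 or CCAR2 KO replicate 3, at 0.52, 0.51 and 0.52. SLC39A8 was called higher without WT hypoxia replicate 2 or CCAR2 KO replicate 2, at 0.51 for both. The median was -0.09 in hypoxia and -0.05 in CCAR2 KO.

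Genes linked to MTF1 in other work were also on a list, and 4 of 5 were tested. These were GCLC, an enzyme of glutathione synthesis, PGF, a growth factor of vessels, SLC39A10 and SELENOH. PGF was called higher in both comparisons with WT normoxia, where it was at 12.6, 15.6, 15.4 and 16.9 CPM. It was at 30.9, 27.3, 30.0 and 28.8 CPM in WT hypoxia and at 21.2, 22.8, 23.8 and 24.2 CPM in CCAR2 KO, 3 ranges that did not meet. The log2 fold changes were 0.94 (SE 0.09, adjusted p = 6.11e-05 in edgeR) in hypoxia and 0.60 (SE 0.09, adjusted p = 0.000233 in edgeR) in CCAR2 KO. GCLC was at 32.9 to 37.4 CPM in CCAR2 KO, 23.9 to 26.7 CPM in WT normoxia and 20.5 to 23.3 CPM in WT hypoxia. It was called between CCAR2 KO and WT hypoxia, at 0.70 (SE 0.06, adjusted p = 6.91e-06 in edgeR), and at 0.48 (SE 0.06) it missed the fold limit against WT normoxia. That call turned as well: GCLC was called higher there without WT normoxia replicate 1 or CCAR2 KO replicate 2, both at 0.51, and with the GC trend removed, at 0.50. SELENOH and SLC39A10 were not called in the main fit of any comparison. SELENOH had log2 fold changes of 0.02 (SE 0.08) in hypoxia, -0.24 (SE 0.09) in CCAR2 KO and -0.265 (SE 0.07) in CCAR2 KO against WT hypoxia. Those of SLC39A10 were -0.37 (SE 0.07), 0.12 (SE 0.06) and 0.48 (SE 0.07) in the same order. In each comparison 1 of the 4 genes was called higher, as were 5.83%, 6.73% and 7.08% of all genes tested. By the adjusted p-value alone 3 of the 4 passed in hypoxia, 2 of them lower. In CCAR2 KO 2 passed against WT normoxia, both higher, and 4 against WT hypoxia, 2 higher and 2 lower. The shares of all genes tested that passed were 23.5%, 30.4% and 34.9% in the same order. The medians of the 4 genes were -0.11 in hypoxia, 0.30 in CCAR2 KO and 0.11 in CCAR2 KO against WT hypoxia.

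Copper is the other metal that metallothioneins hold in cells, and 13 genes of copper uptake, export and delivery were tested. None was called in any of the 3 comparisons by edgeR, DESeq2 or limma-voom, and 3, 9 and 6 had an edgeR p-value under 0.05 before adjustment. By the adjusted p-value alone 1 passed in hypoxia, 7 in CCAR2 KO against WT normoxia, 2 higher and 5 lower, and 4 in CCAR2 KO against WT hypoxia, where 23.5%, 30.4% and 34.9% of all genes tested passed. Of all genes tested, 5.83%, 6.73% and 7.08% were called higher in the 3 comparisons, and 1.43%, 2.94% and 7.88% lower. Calls of copper genes did appear in single alternatives, and the genes are named after their values were seen. ATP7A, a copper exporter, was called lower against WT normoxia without CCAR2 KO replicate 1, at -0.51, and lower against WT hypoxia without WT hypoxia replicate 2 or CCAR2 KO replicate 1, at -0.51 and -0.54, and with the GC trend removed, at -0.55. SLC31A2 was called higher against WT hypoxia without WT hypoxia replicate 3, at 0.68. The medians were 0.02, -0.12 and -0.15.

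**Figure D5:**
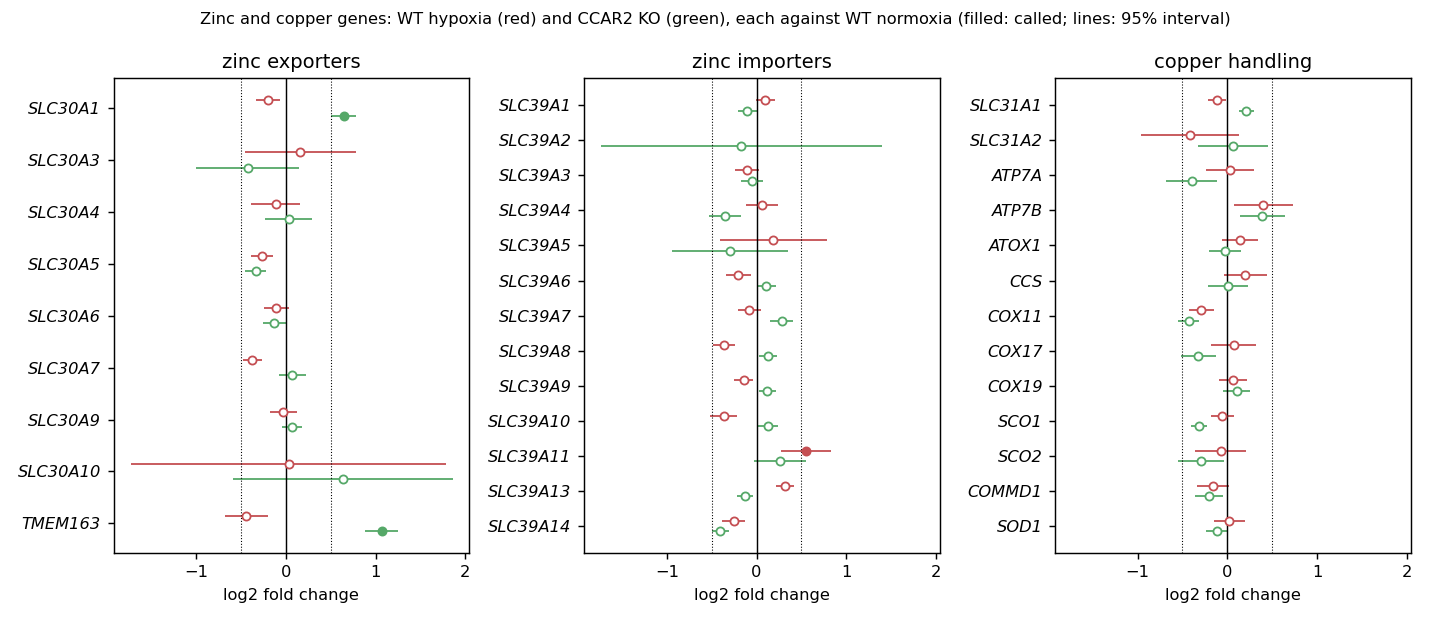
Log2 fold change (horizontal axes) of the tested zinc exporters, zinc importers and copper handling genes in WT hypoxia and in CCAR2 KO, each against WT normoxia; points are estimates, lines are 95% intervals, filled points were called and dotted lines mark ±0.5. SLC30A1 (0.64) and TMEM163 (1.07) are the exporters called in CCAR2 KO, SLC39A11 (0.55) is the importer called in hypoxia, and no copper gene was called.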

How the data were processed

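The methods state that poly-A RNA was sequenced, here in 12 libraries. The methods name triplicate extractions and 2 biological replicates per condition, whereas the labels give 4 libraries per group, which were all used. Reads were aligned with Hisat2 and quantified with StringTie, while the labels list HISAT2, SAMtools and featureCounts; the genome build is not given in the sources used here. The authors deposited expected counts per gene, whole numbers that are estimates and were not scaled to library size (more genes have 4 than 3 or 5 in all 12 libraries). From these, CPM were computed over TMM-adjusted sums of all 12 libraries. Each comparison was fitted on its 8 libraries with edgeR 4.0.16 in R 4.3.3 (TMM, filterByExpr, glmQLFit, glmQLFTest) with Benjamini-Hochberg adjustment over all genes tested; calls needed an adjusted p under 0.05 and a log2 fold change of 0.5 or more in either direction, and intervals are at 95%. For single genes an exact permutation test (two-sided, on log2 CPM with prior count 2) was added; its smallest p with 4 against 4 is 0.0286. The precision of low genes is limited by depth, and limits at a count of 0 use 3 counts.

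All samples were grouped by their labels. The members and the gene lists were chosen with earlier results of these data known. All 8 members were named in every comparison, with CCAR2, up to 4 called genes of each list with the largest change and a mean of at least 100 counts, and the 5 genes most alike by Pearson's r of log2 CPM. Positions and transcripts came from GENCODE v29, with 58337 of 60664 identifiers matched, and promoter sequences from RefSeq. The fit was tested on simulated data. Alternatives were DESeq2 1.42.0, limma-voom (limma 3.58.1), size factors by RLE, dropping the filter or raising it to 10 counts per library, calling by the adjusted p alone or with a fold limit of 1 (log2), 1 fit of all 12 libraries, a replicate block, counts divided by 4, lowess trends (span 0.3) with transcript length or GC content removed, and each library left out in turn. The length measured by the median transcript and the index of short transcripts were added after seeing the data. Protein blots, PCR and mouse experiments were not used here.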

Additional observations from a re-analysis of the deposited data

Results flagged for a closer look

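In 41 groups of 4 libraries, the gap of the highest or lowest library to its neighbour was divided by the range of the group and compared with Dixon's critical value; about 2.05 such groups pass by chance, and 2 did. For MT1G, CCAR2 KO replicate 1 was apart from the other libraries at a ratio of 1, since it was at 0.0434 CPM (a count of 6) and the others were at 0. For MT1A, WT normoxia replicate 2 was the highest at a ratio of 0.845, at 1.38 CPM.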

How the results depend on the processing

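Counts of calls moved mainly with the threshold. The adjusted p alone gave 2518 genes higher and 2609 lower in hypoxia, 3199 and 3307 in CCAR2 KO against WT normoxia and 3628 and 3762 in CCAR2 KO against WT hypoxia; of the members it called 1 lower in hypoxia, 2 higher and 1 lower in CCAR2 KO, and 2 higher and 1 lower in CCAR2 KO against WT hypoxia. A fold limit of 1 on the log2 scale gave 440 and 47, 604 and 171, and 582 and 637 genes, and 0 members. MT1E was counted as 1 member lower in CCAR2 KO with no filter (-0.52) and with the GC trend removed (-0.53). With the length trend removed, 1 member was higher in CCAR2 KO against WT hypoxia, since MTF1 was at 0.44. With a library left out, members lower in CCAR2 KO numbered 0 to 1 and members higher against WT hypoxia 1 to 2. Values near 0 changed sign: MT1X in CCAR2 KO was -0.007005 with no filter and -0.014 with the GC trend removed, CCAR2 in hypoxia was -0.096 with the GC trend removed, and over the fits with a library left out MT2A in hypoxia ran from -0.092 to 0.055, MT1X in hypoxia from -0.074 to 0.26, in CCAR2 KO from -0.041 to 0.12 and against WT hypoxia from -0.25 to 0.073. The cause was not tested. In the 12 other settings, 204 of 216 member log2 fold changes kept their direction and their side of the threshold, and 131 of 144 with a library left out. The adjusted p alone and the fold limit of 1 kept the main fit, so the log2 fold changes there could not change direction.

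The replicate numbers were not taken to pair the libraries, since not every pair was above 0.1 in any comparison: libraries with the same number had correlations of their deviations between -0.02 and 0.07 over all genes (on genes of high count, 0.044 to 0.15 for hypoxia, -0.205 to 0.069 for CCAR2 KO, and -0.014 to 0.089 for CCAR2 KO against WT hypoxia), and 3, 2 and 3 of 8 libraries correlated best with their own number in the 3 comparisons. A replicate block gave 1183 genes higher and 324 lower in hypoxia, 1393 and 603 in CCAR2 KO and 1478 and 1613 in CCAR2 KO against WT hypoxia, with 0, 1 and 2 members called higher and SLC30A1 at 0.64 in CCAR2 KO against WT normoxia. Depth limits MT1G and MT1M: with no filter they were not called in either comparison with CCAR2 KO, and both were at 0 in all 8 libraries of hypoxia against normoxia.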
